A study of Mus musculus with 9 samples.

Results

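The clustered protocadherins are 58 gene identifiers of the 43629 counted in these libraries. They were chosen by their symbols in GENCODE for mouse GRCm38 (Pcdha, Pcdhac, Pcdhb, Pcdhga, Pcdhgb or Pcdhgc followed by a number) and lie together on the plus strand of chromosome 18, from 36930184 to 37841873. The alpha cluster held 14 of them, the beta cluster 22, and the gamma cluster 12 gamma A, 7 gamma B and 3 gamma C genes. The symbol Pcdha11 stood on 2 identifiers, so the 58 identifiers carry 57 symbols; the first of these, ENSMUSG00000007440, lies where RefSeq places Pcdha10.

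Protocadherins are adhesion proteins of the cadherin superfamily, and those of the clusters are best known from neurons, where cells that display the same combination recognise each other. In the alpha and gamma clusters each gene has its own promoter and its own long first exon, which encodes the extracellular and membrane-spanning parts and is spliced to constant exons shared by the whole cluster, while each beta gene is a single exon. In mouse neurons the choice of promoter involves CTCF, cohesin and promoter methylation by DNMT3B, and the C-type genes at the ends of the alpha and gamma clusters are regulated apart from the rest.

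The 9 libraries form 3 groups of 3: DNMT3a siRNA, DNMT3b siRNA and negative siRNA. All came from heart ventricles of embryos of the outbred CD-1 mouse strain at day 13.5, pooled by litter, dissociated with papain and cultured for 48 h. The cells were then given 0.012 pmol of siRNA by lipofection, either 4 pooled siRNAs to DNMT3a, 4 pooled siRNAs to DNMT3b, or a bought negative control (negative siRNA), and after 72 h were harvested and sorted magnetically for VCAM1, a surface protein of embryonic cardiomyocytes. Both DNMT3A and DNMT3B are de novo DNA methyltransferases, and the question posed by the design is which transcripts depend on either; DNA methylation itself was not analysed here. Whether the 3 libraries of a group are separate litters or separate wells is not in the labels, so p-values measure the spread among these libraries and no more, and that spread may be technical.

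Both knockdowns were visible in the counts. Dnmt3a was at 40.3, 52.9 and 46.3 CPM after DNMT3a siRNA, at 215, 234 and 235 CPM in the DNMT3b libraries and at 232, 270 and 275 CPM after negative siRNA. Dnmt3b was scarce in all groups: 4.87, 4.70 and 4.71 CPM after DNMT3a siRNA, 1.17, 2.43 and 1.51 CPM in the DNMT3b libraries, and 4.32, 4.26 and 4.33 CPM after negative siRNA. CPM are counts brought to a common library total with TMM scaling, and each library held 27852412 to 35896018 reads counted in genes. The sorted cells were not a pure population. The 18 cardiomyocyte markers summed to 6498 to 8314 CPM after DNMT3a siRNA, 8083 to 9680 CPM after DNMT3b siRNA and 2678 to 3574 CPM after negative siRNA, and 15 of 18 rose after DNMT3a siRNA and 16 of 18 after DNMT3b siRNA. The 12 fibroblast markers summed to 59220 to 64658, 54221 to 60588 and 59766 to 77937 CPM in the same order of groups, with 4 of 12 lower after either knockdown and none higher. At the same threshold (edgeR adjusted p under 0.05) 10.1% of all genes differed from negative siRNA after DNMT3a siRNA and 5.64% after DNMT3b siRNA. No gene of any marker list had 0 counts in all libraries, and the part of cell composition in the results below was not tested. In bulk libraries, fewer cells of a type and less RNA per cell cannot be told apart.

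How much of each gene could be counted follows from the gene models. The alpha and the gamma genes each share 3 constant exons, and a read there lies in several genes; such reads stood in the ambiguous line, 1.92% to 2.45% of each table. A member's count therefore rests mostly on its variable first exon, and levels of different genes are compared here per kilobase that no other gene covers on either strand (countable kb). Those bases ran from 0 for Pcdhga10, whose first exon lies wholly under an antisense gene and which had 0 counts, to 8695 in the beta cluster. For Pcdhgc3, 1821 of 3380 first-exon bases were countable because the antisense gene BC037039 covers the others. BC037039 itself had 11, 17 and 13 reads after DNMT3a siRNA, 20, 28 and 24 after DNMT3b siRNA and 22, 19 and 24 after negative siRNA, far below the counts of Pcdhgc3. Since the strand setting of the counting is not given in the sources used here, levels of members under antisense genes are uncertain.

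Of the 58 members, 40 passed the filter on low counts and were tested, 14 had 1 to 34 reads over all 9 libraries, and 4 had none (Pcdha4, the second Pcdha11, Pcdhac1 and Pcdhga10). The alpha cluster was nearly silent. Of its 14 members only Pcdhac2, a C-type gene known for the tiling of serotonergic axons, was tested, and its mean over all libraries was 0.34 CPM per countable kb. The other 13 alpha members together gave 117 reads in 9 libraries. The most read of these were the first Pcdha11 and Pcdha12, with 28 reads each. Pcdhac2 had 0.78, 1.79 and 1.15 CPM after DNMT3a siRNA, 0.89, 0.78 and 0.46 CPM in the DNMT3b libraries and 0.89, 1.95 and 0.59 CPM after negative siRNA. The groups overlapped, and library 2 was the highest of both the DNMT3a and the negative siRNA group. Its log2 fold change against negative siRNA was 0.11 ± 0.45 after DNMT3a siRNA (SE; edgeR adjusted p = 0.92).

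The beta cluster changed in level along its length. Its first 15 genes, Pcdhb1 to Pcdhb15, had means over all libraries of at most 0.50 CPM per countable kb, with a median of 0.12, and 4 of them (Pcdhb1, Pcdhb6, Pcdhb10 and Pcdhb12) were not tested for lack of reads. Its last 7 genes, Pcdhb16 to Pcdhb22, all lay higher, between 0.62 and 1.70 CPM per countable kb. Those 7 gave 10241 of the 13156 beta reads. By mean CPM over all libraries the leading beta genes were Pcdhb22 (10.0 CPM), Pcdhb17 (7.93 CPM) and Pcdhb19 (4.79 CPM), with Pcdhb16 level with the third at 4.78 CPM.

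Every gamma A and gamma B gene with countable bases was read, at 0.45 to 5.60 CPM per countable kb and with a median of 1.94. Pcdhga7 and Pcdhga11 led these 18 genes, at 5.60 and 5.08 CPM per countable kb. Both lie partly under antisense genes, with 2562 and 1256 countable bases, or 3098 and 2637 if reads were counted by strand. For Pcdhgb7, the highest of gamma B per countable kb, these bases were 1823 and 2594. Their ranks, and the order of Pcdhga7 and Pcdhgc5 given below, are therefore uncertain. Pcdhgc3 stood far above all others: its mean was 51.8 CPM per countable kb, against 6.25 for Pcdhgc5, the next in order, and 1.08 for Pcdhgc4. Pcdhgc3 (ENSMUSG00000102918, chr18:37806364-37841873) is known to bind Axin1 and restrain Wnt signalling in other cells, Pcdhgc4 (ENSMUSG00000023036, chr18:37815079-37841873) is needed for interneuron survival in mice, and Pcdhgc5 (ENSMUSG00000102543, chr18:37819513-37841873) is known in neurons as a partner of GABA-A receptors. Pcdhgc3 alone took 30.3% to 41.3% of the reads of all 58 members in each library. The order of Pcdhgc5 and Pcdhga7, the genes ranked next after Pcdhgc3, was not the same in every group. Per countable kb Pcdhgc5 had 3.24, 3.89 and 3.36 CPM after DNMT3a siRNA, below Pcdhga7 (4.77, 4.51 and 5.50) in all 3 libraries. After DNMT3b siRNA Pcdhgc5 had 6.88, 8.54 and 8.17 CPM per countable kb against 6.37, 5.17 and 4.65 for Pcdhga7, and after negative siRNA 6.99, 7.93 and 7.22 against 6.21, 6.0 and 7.19, so it was above Pcdhga7 in each of these 6 libraries.

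**Figure D1:**
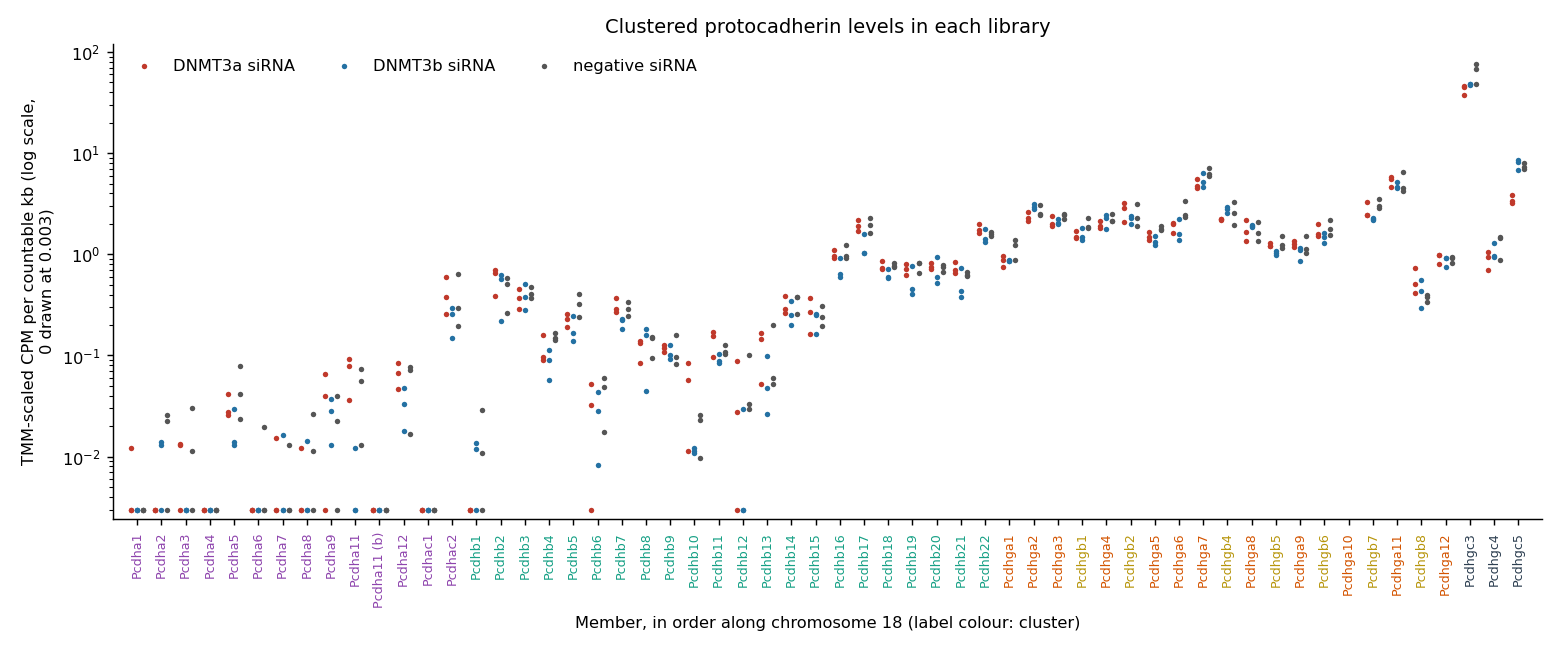
Level of each member in each library, in TMM-scaled CPM per countable kb on a log axis, with members in their order along the chromosome; 1 point is 1 library, values of 0 are drawn at 0.003, Pcdha11 (b) is ENSMUSG00000102206 and Pcdhga10 has no countable bases. The alpha genes other than Pcdhac2 lie near 0, the beta genes step up at Pcdhb16, and Pcdhgc3 is highest with a mean of 51.8.

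The clusters also differed in the sequence of their first exons. The ratio of observed to expected CpG dinucleotides had a median of 0.65 in the alpha cluster, 0.39 in the beta cluster, 0.47 in gamma A, 0.65 in gamma B and 0.41 in gamma C. A beta first exon is the whole transcript, up to 8695 bases for Pcdhb14, so unlike parts of genes are set side by side. Within gamma C the ratio was 0.66 for Pcdhgc3, over 3380 bases, and 0.34 for Pcdhgc5, over 5426 bases. Reads can only be counted where a sequence is unique. The share of 50-base words of a first exon found also in other members had a median of 14.2% in alpha, 4.26% in beta, 0.29% in gamma A, 10.4% in gamma B and 0% in gamma C. It was 0% for Pcdhgc3 and Pcdhgc4 and 0.26% for Pcdhgc5. Counting words in transcripts of any other chromosome 18 gene, the share was 15.2% for Pcdhgc5 and stayed at 0% for Pcdhgc3 and Pcdhgc4. Antisense sequence and other chromosomes were not searched. The models of Gm37013, Gm37388, Gm38182 and Gm42416 overlap the first exon of Pcdhgc5, so its share need not be repeated sequence. Of the 7627 exon bases of Pcdhgc5, 4606 were countable. These values describe the gene models and were not tested against the knockdowns.

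Of the 40 tested members, 2 were lower after DNMT3a siRNA than after negative siRNA and none was higher (edgeR's quasi-likelihood test, adjusted p under 0.05). Both are gamma C genes, Pcdhgc5 and Pcdhgc3. Over all 16561 genes tested, 10.1% were called in this comparison, 5.22% lower and 4.87% higher, so 2 of 40 is below the share of all genes. Of the 40 log2 fold changes 24 were under 0 (60%), against 46.9% of all genes, and their median was -0.09, against 0.02 for all genes.

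Pcdhgc5 was the clearest difference of the family. It had 459, 591 and 473 reads (14.9, 17.9 and 15.5 CPM) after DNMT3a siRNA, 1031, 1216 and 1074 reads (31.7, 39.3 and 37.6 CPM) after DNMT3b siRNA, and 1156, 1123 and 899 reads (32.2, 36.5 and 33.3 CPM) after negative siRNA. All 3 DNMT3a libraries lay below all 6 others, while the DNMT3b and negative siRNA libraries overlapped. Against negative siRNA the log2 fold change after DNMT3a siRNA was -1.08 ± 0.11 (SE; edgeR adjusted p = 3.25e-04), a level 47.4% of that after negative siRNA. The call held in all 18 alternatives tried, with log2 fold changes from -1.18 to -1.02 and adjusted p from 2.03e-15 to 0.00283.

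Pcdhgc3 had 83.2, 68.9 and 82.9 CPM after DNMT3a siRNA, 87.7, 86.8 and 87.2 CPM in the DNMT3b libraries and 123, 88.7 and 140 CPM after negative siRNA. Negative siRNA library 2 lay close to the DNMT3b libraries, yet no knockdown library reached it. The log2 fold change after DNMT3a siRNA was -0.58 ± 0.14 (SE; edgeR adjusted p = 0.030). With the library number as a block in the fit of all 9 libraries, those of DNMT3b siRNA included, the edgeR adjusted p was 0.0063. The call without a block was not stable to the choice of libraries. It was lost, with adjusted p from 0.0527 to 0.0943, when negative siRNA 1 or 3, any 1 of the DNMT3a libraries, or DNMT3b siRNA 2 was left out, and in a fit of the 2 groups alone (adjusted p = 0.081). Pcdhgc4, the third gamma C gene, had 3.64, 2.42 and 3.24 CPM after DNMT3a siRNA, 3.32, 4.53 and 3.26 CPM in the DNMT3b libraries and 5.04, 3.09 and 5.10 CPM after negative siRNA. Its log2 fold change after DNMT3a siRNA was -0.51 ± 0.24 (SE; edgeR adjusted p = 0.22) and the groups overlapped.

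**Figure D2:**
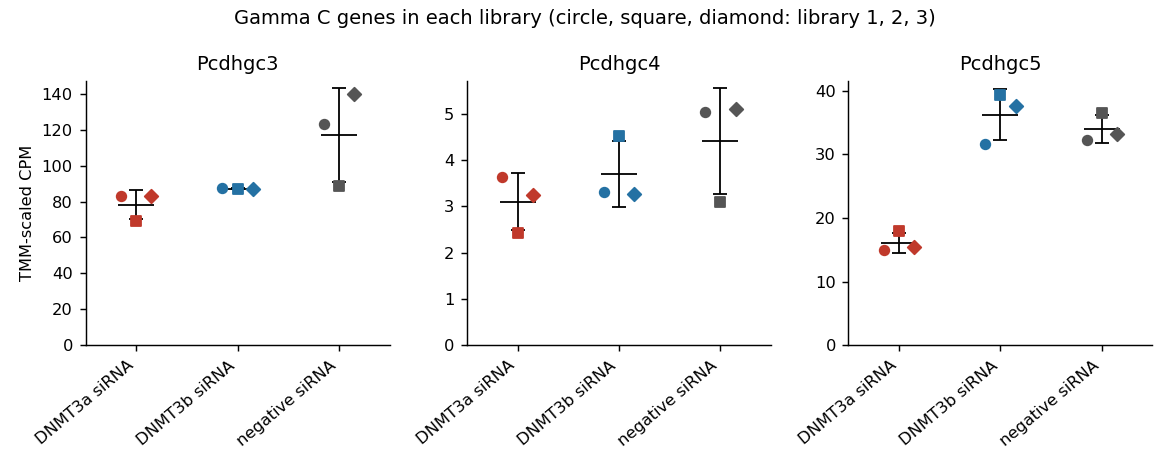
TMM-scaled CPM of the 3 gamma C genes in each library (points; shape gives the library number) with the mean and SD of each group (n = 3). For Pcdhgc5 the DNMT3a siRNA libraries, at 14.9 to 17.9 CPM, lie below all others; for Pcdhgc3 negative siRNA library 2, at 88.7 CPM, lies near the knockdown libraries.

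The balance between both genes shifted with the group. Per 100 reads of Pcdhgc3 there were 17.9, 26 and 18.7 reads of Pcdhgc5 after DNMT3a siRNA, 36.1, 45.4 and 43.1 after DNMT3b siRNA and 26.1, 41.2 and 23.7 after negative siRNA. In library 2 the ratio was the highest of its group in all 3 groups. The DNMT3a and negative siRNA groups overlapped, as DNMT3a siRNA 2 lay above negative siRNA 3 and just under negative siRNA 1. The labels do not state that libraries of the same number are pairs. If those of these 2 groups are read as pairs, the ratio was lower after DNMT3a siRNA in all 3. Per 100 reads of Pcdhgc3, Pcdhgc4 gave 3.52 to 4.37 reads after DNMT3a siRNA, 3.74 to 5.22 after DNMT3b siRNA and 3.48 to 4.09 after negative siRNA.

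Outside gamma C no member passed the test after DNMT3a siRNA. All 3 DNMT3a libraries lay below the 3 negative siRNA libraries for 6 of the 40 members (15%; 12.6% of all genes) and above them for 1, Pcdhgb8 (2.5%; 14.1% of all genes). Pcdhga7 had 12.2, 11.5 and 14.1 CPM after DNMT3a siRNA and 15.9, 15.4 and 18.4 CPM after negative siRNA, with a log2 fold change of -0.39 ± 0.14 (SE; edgeR adjusted p = 0.10). The beta genes were evenly divided, with 9 of 18 log2 fold changes under 0 and a median of 0.03. Pcdhb17 and Pcdhb22 had log2 fold changes of -0.01 ± 0.19 and 0.17 ± 0.14 (SE; edgeR adjusted p = 0.98 and 0.50), and Pcdhb19 -0.10 ± 0.23 (SE; edgeR adjusted p = 0.84). The gamma B genes with the most reads, Pcdhgb4, Pcdhgb2 and Pcdhgb5 (per countable kb Pcdhgb7 led gamma B, at a mean of 2.70 CPM), had values of -0.21 ± 0.17, 0.15 ± 0.21 and -0.07 ± 0.14, and Pcdhga2 and Pcdhga11 of -0.17 ± 0.14 and 0.06 ± 0.18 (SE; lowest edgeR adjusted p = 0.49).

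After DNMT3b siRNA no member passed the test against negative siRNA: edgeR's quasi-likelihood test called 0 of 40, with 8 at an unadjusted p under 0.05, all of them lower, while DESeq2 called 1. Of all genes tested, edgeR called 5.64% at adjusted p under 0.05, 2.12% lower and 3.52% higher. The shares of all genes at an unadjusted p under 0.05, or called by DESeq2, are not given here. Counts of those kinds, here and below, therefore cannot be weighed against all genes. The log2 fold changes nonetheless lay mostly on one side. They were under 0 for 34 of the 40 members (85%), against 49.8% of all genes, and their median was -0.28, against 0.00 for all genes. All 3 DNMT3b libraries lay below the 3 negative siRNA libraries for 11 members (27.5%; 12.3% of all genes) and above them for none (13.8% of all genes). The lean kept its side when the libraries were scaled by DESeq2's size factors or by library size alone (34 of 40 under 0 in each), and on leaving out single libraries the count ran from 29, without negative siRNA 1, up to 34. The members share libraries and scaling, so these counts are a description with no test of their own.

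**Figure D3:**
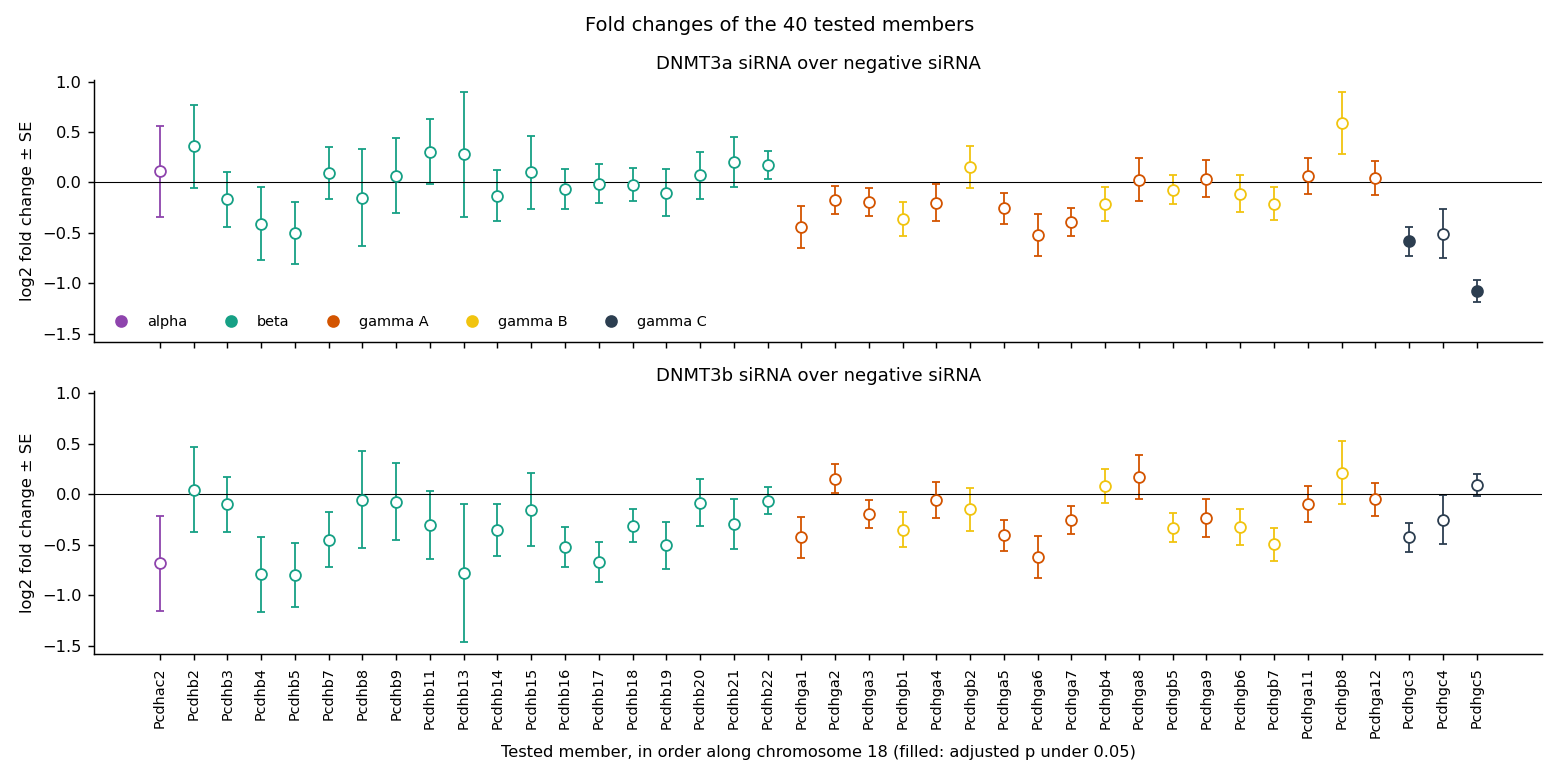
log2 fold change with its standard error for each of the 40 tested members in order along the chromosome, DNMT3a siRNA over negative siRNA above and DNMT3b siRNA over negative siRNA below; colour gives the cluster and filled points passed the test. After DNMT3a siRNA Pcdhgc5 at -1.08 and Pcdhgc3 at -0.58 are filled; after DNMT3b siRNA none is filled and 34 of 40 points lie under 0.

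The 8 members with an unadjusted p under 0.05 after DNMT3b siRNA were Pcdhb5, Pcdhb16, Pcdhb17, Pcdhga5, Pcdhga6, Pcdhgb5, Pcdhgb7 and Pcdhgc3, with log2 fold changes from -0.81 (Pcdhb5) to -0.33 (Pcdhgb5). Pcdhb17 (ENSMUSG00000046387, chr18:37484795-37489454) had 7.41, 4.85 and 4.80 CPM after DNMT3b siRNA and 10.5, 7.51 and 9.17 CPM after negative siRNA. The groups did not overlap, though DNMT3b siRNA 1 lay just under negative siRNA 2. Its log2 fold change was -0.67 ± 0.20 (SE; edgeR adjusted p = 0.076), and leaving out negative siRNA 2 or DNMT3b siRNA 1 gave adjusted p = 0.033 and 0.023. Pcdhgb7 was at 4.15, 3.95 and 4.10 CPM after DNMT3b siRNA and 6.49, 5.53 and 5.18 CPM after negative siRNA, without overlap, with a log2 fold change of -0.50 ± 0.16 (SE; edgeR adjusted p = 0.11). Pcdhga6 was at 5.87, 4.17 and 3.65 CPM after DNMT3b siRNA and 6.05, 6.34 and 8.77 CPM after negative siRNA, also without overlap, with a log2 fold change of -0.62 ± 0.21 (SE; edgeR adjusted p = 0.12). Pcdhgc3 had a log2 fold change of -0.43 ± 0.14 (SE; edgeR adjusted p = 0.11), with an adjusted p of 0.0049 when negative siRNA 2 was left out. Pcdhb19, whose unadjusted p was 0.052, had 5.41, 3.20 and 2.87 CPM after DNMT3b siRNA and 5.85, 4.62 and 5.92 CPM after negative siRNA, with a log2 fold change of -0.51 ± 0.23 (SE; edgeR adjusted p = 0.24), and passed when DNMT3b siRNA 1 was left out (adjusted p = 0.036). For Pcdhb17 and Pcdhb19 DNMT3b siRNA 1 was the highest library of its group and lay nearest to negative siRNA.

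The other members with the most reads of their clusters also missed the threshold. Pcdhb22 (ENSMUSG00000073591, chr18:37517871-37524479), the most counted beta gene, had 11.0, 8.19 and 8.76 CPM after DNMT3b siRNA and 9.73, 9.33 and 10.2 CPM after negative siRNA (log2 fold change -0.06 ± 0.14, SE; edgeR adjusted p = 0.84). Pcdhga7 (ENSMUSG00000103472, chr18:37714764-37841873) had 16.3, 13.2 and 11.9 CPM after DNMT3b siRNA, overlapping negative siRNA (-0.26 ± 0.14, SE; edgeR adjusted p = 0.31). Pcdhgb5 was at 4.52, 4.73 and 5.01 CPM after DNMT3b siRNA and 6.94, 5.27 and 5.70 CPM after negative siRNA, without overlap (-0.33 ± 0.15, SE; edgeR adjusted p = 0.22). Pcdhgb4, Pcdhgb2, Pcdhga2 and Pcdhga11 had log2 fold changes of 0.08 ± 0.17, -0.15 ± 0.21, 0.15 ± 0.14 and -0.10 ± 0.18 (SE), and Pcdhac2 and Pcdhgc4 of -0.69 ± 0.47 and -0.25 ± 0.24 (SE); the lowest edgeR adjusted p of these was 0.44. Pcdhgc5 was 0.09 ± 0.11 (SE; edgeR adjusted p = 0.68) after DNMT3b siRNA.

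Set against each other, the knockdowns differed in 1 member: Pcdhgc5 was lower after DNMT3a than after DNMT3b siRNA, with a log2 fold change of -1.17 ± 0.11 (SE; edgeR adjusted p = 4.15e-04) that was called in all 18 alternatives. Of all genes, 9.55% were called in this comparison, 5.08% lower and 4.47% higher. Of all 40 tested members, Pcdhgc5 included, 28 had log2 fold changes above 0. Under 0 were 12 (30%, against 48.5% of all genes), and the median was 0.22. The lean above 0 lay mostly in beta (16 of 18, median 0.31) and gamma B (5 of 7, median 0.26). Gamma A was split, with 6 above and 5 under 0 (median 0.004), and all 3 gamma C genes were under 0. Pcdhb17 averaged 9.01 ± 1.18 CPM in DNMT3a libraries, against 5.69 ± 1.49 CPM in DNMT3b libraries (SD, n = 3 each), with no overlap and a log2 fold change of 0.66 ± 0.20 (SE; edgeR adjusted p = 0.062). It passed when negative siRNA 2 or DNMT3b siRNA 1 was left out (adjusted p = 0.044 and 0.024), and Pcdhb19 passed without DNMT3b siRNA 1 (adjusted p = 0.0497). All 3 DNMT3a libraries lay above the 3 DNMT3b libraries for 6 members (15%; 16.2% of all genes) and below them for 4 (10%; 16.1% of all genes).

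Summed over the 58 members, the clusters gave 248, 227 and 253 CPM after DNMT3a siRNA, 265, 257 and 256 CPM in the DNMT3b libraries and 328, 270 and 339 CPM after negative siRNA. Both knockdown groups lay wholly below negative siRNA, with negative siRNA 2 the nearest. The log2 ratio of the means was -0.36 for DNMT3a and -0.27 for DNMT3b siRNA. By group means, gamma A, gamma B and gamma C were below negative siRNA after either knockdown, and alpha and beta after DNMT3b siRNA only. Gamma C was the largest part of the difference in CPM for either knockdown. Gamma C summed to 97.5 ± 7.2 CPM after DNMT3a siRNA, 127 ± 4.1 CPM after DNMT3b siRNA and 156 ± 25.4 CPM after negative siRNA (SD, n = 3 each), log2 ratios to negative siRNA of -0.68 and -0.29. The DNMT3a libraries lay below all others, and the DNMT3b libraries overlapped negative siRNA 2.

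The beta cluster summed to 50.9 ± 2.0 CPM after DNMT3a siRNA, 39.4 ± 6.0 CPM after DNMT3b siRNA and 50.1 ± 4.0 CPM after negative siRNA (SD, n = 3 each). By library it was 46.4, 35.3 and 36.5 CPM after DNMT3b siRNA and 54.2, 46.2 and 50.0 CPM after negative siRNA, so that DNMT3b siRNA 1 overlapped the lowest negative siRNA library. Both stretches of the cluster had like ratios after DNMT3b siRNA: -0.32 for Pcdhb1 to Pcdhb15 and -0.36 for Pcdhb16 to Pcdhb22. After DNMT3a siRNA the ratios of these stretches were -0.03 and 0.04. Gamma A summed to 56.9 ± 4.1, 57.9 ± 2.5 and 66.0 ± 5.9 CPM after DNMT3a, DNMT3b and negative siRNA, and gamma B to 36 ± 1.5, 33.7 ± 0.33 and 38.6 ± 6.1 CPM (SD, n = 3 each), and both overlapped between either knockdown and negative siRNA. The labels do not state that libraries of the same number are pairs. Between them the gamma A sum was lower after DNMT3a than after negative siRNA in all 3 (56.9 against 66.5, 52.8 against 59.9 and 60.9 against 71.6 CPM). The gamma C sum was also lower in all 3. Gamma B went both ways (37.4 against 45.0, 34.4 against 32.8 and 36.1 against 38.0 CPM), as did beta and alpha. The share of all genes lower in all 3 is not given here. The alpha cluster summed to 1.75 ± 0.33, 0.94 ± 0.20 and 1.66 ± 0.60 CPM in the same groups, which rests on 21 to 72 reads per library.

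**Figure D4:**
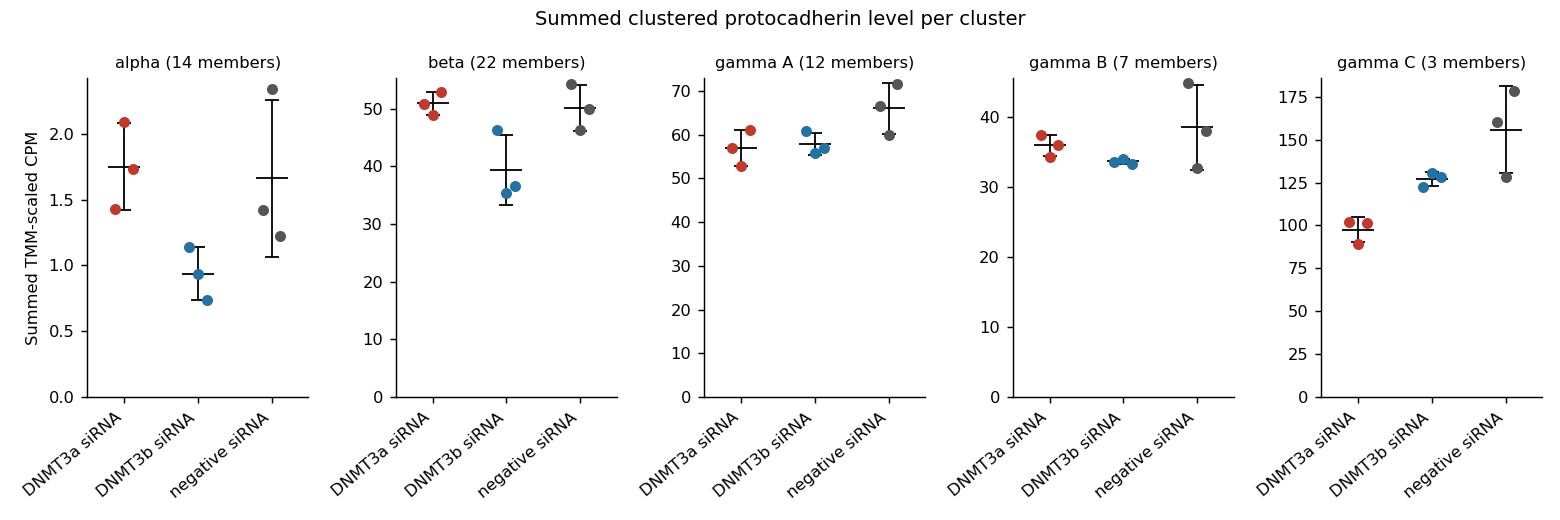
Summed TMM-scaled CPM of each cluster in each library (points) with the mean and SD of each group (n = 3). Gamma C is lowest after DNMT3a siRNA (97.5 CPM on average), and alpha and beta are lowest after DNMT3b siRNA (0.94 and 39.4 CPM).

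As shares of all clustered protocadherin reads, gamma C made up 40.1% ± 0.9 after DNMT3a siRNA, 49.1% ± 2.4 after DNMT3b siRNA and 49.7% ± 2.6 after negative siRNA (SD, n = 3 each). The beta share was 21.0% ± 0.5 after DNMT3a siRNA, 15.2% ± 2.0 after DNMT3b siRNA and 16.1% ± 1.3 after negative siRNA. Without Pcdhgc3 and Pcdhgc5 the other 56 members summed to 149 ± 7.3, 136 ± 8.3 and 161 ± 14.6 CPM (SD, n = 3 each), log2 ratios to negative siRNA of -0.11 for DNMT3a and -0.25 for DNMT3b siRNA.

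Neurons are the cells best known for these genes, and their markers were present at a low level. The 15 neuron markers summed to 136 to 166 CPM after DNMT3a siRNA, 62.8 to 87.7 CPM after DNMT3b siRNA and 87.2 to 145 CPM after negative siRNA, and 9 were tested. Gap43, a growth cone protein, was the one that rose after DNMT3a siRNA (edgeR adjusted p = 0.0135; 0.061 without negative siRNA 3), and edgeR called none after DNMT3b siRNA (1 at an unadjusted p under 0.05; DESeq2 called 1). Gap43 and Tubb3, a neuronal tubulin, were higher after DNMT3a than after DNMT3b siRNA. The 10 Schwann cell and neural crest markers summed to 48.6 to 74.2, 59.4 to 73.4 and 72.7 to 79.9 CPM after DNMT3a, DNMT3b and negative siRNA, and edgeR and DESeq2 called none of the 5 tested (1 at an unadjusted p under 0.05 after DNMT3a and 0 after DNMT3b siRNA). The neuron sum and the beta sum were both lowest after DNMT3b siRNA. The neuron sum rested mostly on Tubb3, at 50.3 ± 12.8 CPM after DNMT3b siRNA and 93.8 ± 31.5 CPM after negative siRNA (SD, n = 3 each; log2 fold change -0.90, edgeR adjusted p = 0.077), while 7 of the 9 tested markers had log2 fold changes above 0 and their median was 0.36. The part of neuronal cells in the beta level was not tested. For other types, 1 of 9 tested epicardial markers rose and 4 fell after DNMT3a siRNA and 1 fell after DNMT3b siRNA, 3 of 10 macrophage markers fell after DNMT3a siRNA, and 1 of 10 endothelial markers rose after DNMT3b siRNA. Of all genes tested, 10.1% were called after DNMT3a siRNA and 5.64% after DNMT3b siRNA. The macrophage markers summed to 8.54 to 18.2, 20.6 to 50.3 and 22.9 to 61.4 CPM after DNMT3a, DNMT3b and negative siRNA. Against negative siRNA, 10 of 10 had log2 fold changes under 0 after DNMT3a siRNA (46.9% of all genes), with a median of -1.73. After DNMT3b siRNA 9 of 10 were under 0 (49.8% of all genes), with a median of -0.63. The endothelial markers summed to 71.9 to 122 CPM after DNMT3a siRNA, 148 to 155 CPM after DNMT3b siRNA and 86.9 to 122 CPM after negative siRNA, and their median log2 fold change after DNMT3b siRNA was 0.99. Of 10 smooth muscle and pericyte markers edgeR called none after either knockdown, with 3 after DNMT3a and 5 after DNMT3b siRNA at an unadjusted p under 0.05, and DESeq2 called 2 after each. Their sums ran from 8016 to 9166, 8186 to 9752 and 5682 to 8367 CPM after DNMT3a, DNMT3b and negative siRNA, and their median log2 fold changes against negative siRNA were 0.34 after DNMT3a and 0.60 after DNMT3b siRNA.

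Of 28 genes for chromatin and loop proteins that regulate the clusters, 2 changed after DNMT3b siRNA and 3 after DNMT3a siRNA, the targeted genes included. Of all genes tested, 5.64% and 10.1% were called in these comparisons. The log2 fold change of Dnmt3a was -2.48 ± 0.11 after DNMT3a siRNA (SE; edgeR adjusted p = 3.42e-06). That of Dnmt3b was -1.34 ± 0.23 after DNMT3b siRNA (SE; edgeR adjusted p = 0.0082; 0.054 without DNMT3b siRNA 3). Rcor1, the CoREST corepressor, rose after both: it was 114 ± 5.7 CPM after DNMT3a siRNA, 118 ± 4.7 CPM after DNMT3b siRNA and 89.3 ± 4.7 CPM after negative siRNA (SD, n = 3 each; edgeR adjusted p = 0.0135 and 0.0099). Both calls were lost on leaving out some single libraries, negative siRNA 1 or 3 or DNMT3a siRNA 3 for the DNMT3a group and DNMT3b siRNA 2 or 3 for the DNMT3b group, with adjusted p up to 0.0535 and 0.074. Rest, a repressor of neuronal genes, was 109 ± 0.61 CPM after DNMT3a siRNA, 131 ± 0.67 CPM after DNMT3b siRNA and 136 ± 3.9 CPM after negative siRNA (SD, n = 3 each), and fell after DNMT3a siRNA by 0.32 on the log2 scale (SE 0.06; edgeR adjusted p = 0.0093), a call that held in all 18 alternatives. Between the knockdowns, Dnmt3a and Rest were lower and Dnmt3b and Wiz, a zinc finger partner of G9a, higher after DNMT3a siRNA. Of these, the call of Rest was lost without DNMT3a siRNA 1 or 3 or any 1 of the DNMT3b libraries (adjusted p up to 0.094), and that of Wiz without any 1 library other than the 2 of number 2 in the DNMT3a and negative siRNA groups (adjusted p up to 0.19).

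Of 27 signalling partners of these protocadherins, 2 fell after DNMT3b siRNA (5.64% of all genes were called), while 2 rose and 3 fell after DNMT3a siRNA (10.1% of all genes were called). Abi2, a subunit of the WAVE actin-regulating complex, fell after both: it was 56.4 ± 6.0 CPM after DNMT3a siRNA, 67.0 ± 0.75 CPM after DNMT3b siRNA and 92.0 ± 3.3 CPM after negative siRNA (SD, n = 3 each), log2 fold changes of -0.71 and -0.46 (edgeR adjusted p = 7.51e-04 and 0.0112). The DNMT3a call held in all 18 alternatives, and the DNMT3b call was lost without DNMT3b siRNA 2 or 3 (adjusted p up to 0.059). Cyfip1, another WAVE subunit, had log2 fold changes of -0.30 and -0.36 after DNMT3a and DNMT3b siRNA (edgeR adjusted p = 0.0451 and 0.033), and these calls held in 8 and 13 of 18 alternatives; the DNMT3b call was lost without negative siRNA 1 or 3, DNMT3a siRNA 1 or DNMT3b siRNA 2 or 3 (adjusted p up to 0.155). Marcks, an actin-binding kinase substrate, was 769 ± 71 CPM after DNMT3a siRNA, 460 ± 8.3 CPM after DNMT3b siRNA and 526 ± 51 CPM after negative siRNA (SD, n = 3 each) and rose after DNMT3a siRNA (log2 fold change 0.55 ± 0.10, SE; edgeR adjusted p = 0.0062; called in all 18 alternatives). The kinase gene Fyn rose by 0.31 and the phospholipase gene Plcg1 fell by 0.27 on the log2 scale after DNMT3a siRNA (edgeR adjusted p = 0.0207 and 0.0231), and both calls were lost without negative siRNA 1 or DNMT3a siRNA 1 or 3, that of Fyn also without DNMT3b siRNA 3 and that of Plcg1 without negative siRNA 3 (adjusted p up to 0.0731 and 0.0906). Marcks and Fyn were also higher after DNMT3a than after DNMT3b siRNA.

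The 13 non-clustered protocadherins, which do not share constant exons, included 11 tested genes; Pcdh1 and Pcdh12 among them lie beyond the gamma cluster on chromosome 18 and are counted among its neighbours too. After DNMT3b siRNA 2 fell (5.64% of all genes were called) and after DNMT3a siRNA 1 rose and 2 fell (10.1% of all genes were called). Pcdh18 was 80.7, 93.1 and 83.5 CPM after DNMT3a siRNA, 53.3, 44.3 and 43.7 CPM in the DNMT3b libraries and 82.4, 91.6 and 80.5 CPM after negative siRNA. It was lower in the DNMT3b libraries than in all 6 others, by 0.85 ± 0.10 on the log2 scale against negative siRNA (SE; edgeR adjusted p = 9.58e-04; called in all 18 alternatives). Pcdh7 was 174 ± 11.3 CPM after DNMT3a siRNA, 126 ± 7.6 CPM after DNMT3b siRNA and 125 ± 9.0 CPM after negative siRNA (SD, n = 3 each) and rose after DNMT3a siRNA (log2 fold change 0.48 ± 0.08, SE; edgeR adjusted p = 0.0056; called in all 18 alternatives). Pcdh19 fell after both, at 6.76 ± 1.14 CPM after DNMT3a siRNA, 6.97 ± 2.55 CPM after DNMT3b siRNA and 17.6 ± 6.5 CPM after negative siRNA (SD, n = 3 each; edgeR adjusted p = 0.0218 and 0.0359), but its calls were lost without any 1 of the DNMT3a libraries in the DNMT3a comparison, and in the DNMT3b comparison without negative siRNA 1 or 3, DNMT3a siRNA 1 or 2 or DNMT3b siRNA 2 or 3 (adjusted p up to 0.082 and 0.156). Pcdh11x fell by 0.75 on the log2 scale after DNMT3a siRNA (edgeR adjusted p = 0.0407), a call lost without negative siRNA 1 or 2, any 1 of the DNMT3a libraries or DNMT3b siRNA 3 (adjusted p up to 0.125). Between the knockdowns Pcdh18, Pcdh7 and Pcdh9 were higher and Pcdh11x lower after DNMT3a siRNA.

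Of 24 other cadherins, 20 were tested. After DNMT3b siRNA 3 rose and 1 fell (5.64% of all genes were called), and 4 rose after DNMT3a siRNA (10.1% of all genes were called). The desmosomal cadherins Dsc2 and Dsg2, which join heart muscle cells, rose after both. Dsc2 was 9.30 ± 0.18 CPM after DNMT3a siRNA, 9.94 ± 0.39 CPM after DNMT3b siRNA and 3.63 ± 0.11 CPM after negative siRNA, and Dsg2 was 26.2 ± 4.3, 26.2 ± 3.3 and 10.3 ± 2.4 CPM in the same groups (SD, n = 3 each; largest edgeR adjusted p = 0.0022; all called in all 18 alternatives). Cardiomyocyte markers rose in the same libraries, and their part in this was not tested. Celsr2 also rose after both and N-cadherin (Cdh2) after DNMT3a siRNA, by 0.75, 1.06 and 0.58 on the log2 scale, and Cdh10 fell by 1.12 after DNMT3b siRNA (edgeR adjusted p = 0.0471, 0.0151, 0.0356 and 0.0339). Celsr2 lost its call after DNMT3a siRNA without negative siRNA 1 or 3, any 1 of the DNMT3a libraries or DNMT3b siRNA 3, and after DNMT3b siRNA without negative siRNA 3 or DNMT3b siRNA 2 or 3 (adjusted p up to 0.126 and 0.074). Cdh2 lost its call without any 1 library other than negative siRNA 1 and DNMT3a siRNA 3, and Cdh10 without negative siRNA 1 or 3, DNMT3a siRNA 3 or any 1 of the DNMT3b libraries (adjusted p up to 0.128 and 0.144). Fat4 alone differed between the knockdowns, higher after DNMT3a siRNA.

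Of 21 tested genes beside the clusters on chromosome 18, 3 were called after DNMT3a siRNA, 1 higher and 2 lower, against 10.1% of all genes. After DNMT3b siRNA edgeR's quasi-likelihood test called none (5.64% of all genes), with 4 at an unadjusted p under 0.05, and DESeq2 called 2. Taf7, a TFIID subunit gene that lies between the beta and gamma clusters, had 9.03, 10.3 and 8.51 CPM after DNMT3a siRNA, 9.07, 8.35 and 6.94 CPM in the DNMT3b libraries and 6.44, 6.99 and 5.88 CPM after negative siRNA. It rose after DNMT3a siRNA (log2 fold change 0.53 ± 0.14, SE; edgeR adjusted p = 0.0407), a direction opposite to Pcdhgc3 and Pcdhgc5, but the call was lost without any 1 library other than negative siRNA 2 and DNMT3b siRNA 1 (adjusted p up to 0.132). The histidyl-tRNA synthetase gene Hars and the signalling inhibitor gene Spry4 fell by 0.38 and 0.49 on the log2 scale after DNMT3a siRNA (edgeR adjusted p = 0.0307 and 0.0376). The call of Hars was lost without negative siRNA 1 or 3, DNMT3a siRNA 1 or 3 or DNMT3b siRNA 2, and that of Spry4 without any 1 library other than negative siRNA 2 and DNMT3a siRNA 3 (adjusted p up to 0.108 and 0.136). The nearest expressed neighbours, Zmat2 before the alpha cluster and Diaph1 after the gamma cluster, had log2 fold changes of 0.24 ± 0.09 and -0.12 ± 0.10 after DNMT3a siRNA and of -0.01 ± 0.09 and -0.29 ± 0.10 after DNMT3b siRNA (SE; lowest edgeR adjusted p = 0.10). Leaving out negative siRNA 2 gave Diaph1 an adjusted p of 0.036 after DNMT3b siRNA. Between the knockdowns Fchsd1, an F-BAR protein gene, was higher and Spry4 lower after DNMT3a siRNA. Of all genes named here as different between the knockdowns, Pcdhgc5, Dnmt3a, Dnmt3b, Marcks, Pcdh18, Pcdh7 and Fchsd1 were called in all 18 alternatives, and each other one lost its call without at least 1 single library (adjusted p up to 0.19).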

How the data were processed

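RNA was measured in 9 libraries, 3 per siRNA group. The authors deposited whole-number read counts per Ensembl gene, 1 table per library, with no normalisation. The submitters' processing notes name FastQC, TopHat2, HTSeq and mm10/GRCm38. The sources used here give neither the annotation release nor the strand setting. Summary lines for reads in no gene, in several genes or at several places entered neither library sizes nor tests. Symbols came from GENCODE M21, which matched 42462 of 43629 identifiers.

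A low-count filter (filterByExpr of edgeR with a minimum count of 10 and a minimum total of 15) left 16561 genes, and libraries were scaled by TMM. All 9 libraries entered one quasi-likelihood fit (edgeR 4.0.16, R 4.3.3; 6 residual degrees of freedom; biological coefficient of variation 0.154), two-sided, with Benjamini-Hochberg adjustment over all 16561 genes and a threshold of 0.05. Cluster sums add CPM of all members and were not tested. The fit was also run on simulated counts, drawn with its own estimates of spread and with no effect of the library number. That run was a check of the code and bears on no result given here. Alternatives used other scalings and filters, DESeq2 1.42.0, limma-voom (limma 3.58.1), only the groups compared, the library number as a block, and libraries left out.

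The members and gene lists were chosen with earlier results of these data known. Named are the members called in any comparison, the 3 most abundant members of each cluster, Dnmt3a, Dnmt3b, Taf7, both nearest expressed neighbours, and at most 4 called genes of each regulator, partner, cadherin and neighbour list, by adjusted p; other genes named were chosen after their values were seen. Same-numbered libraries of the DNMT3a and negative siRNA groups deviated together from their group means (r across genes 0.434, 0.513 and 0.459). Library numbers were therefore read as possible pairs of these groups, though what a number stands for is not labelled. The main fit held the group only, so its p-values take no account of such pairs. A fit of these groups alone with the number as a block was not run. Libraries of a group differed by more than counting noise (chi-square per degree of freedom at least 6.94).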

Additional observations from a re-analysis of the deposited data

How the results depend on the processing

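The call of Pcdhgc5 after DNMT3a siRNA, against negative and against DNMT3b siRNA, kept its direction and its side of the threshold in all 18 alternatives. Counts of members called moved by over 1.5 times as follows. Against negative siRNA, DNMT3b siRNA called 0, but 3 with no filter on low counts, 1 with DESeq2 and 1 without all libraries numbered 2 (an alternative chosen after seeing the data), and 0 to 3 on leaving out single libraries. DNMT3a siRNA called 2 members, 1 in a fit of the 2 groups alone, and 1 to 2 on leaving out single libraries. Between the knockdowns 1 was called, 2 with no filter and with DESeq2, and 1 to 4 on leaving out single libraries. Pcdhga6, named above, passed after DNMT3b siRNA with no filter (edgeR adjusted p = 0.0435) and without DNMT3b siRNA 1 (0.0473). Pcdhb21, not named above, passed between the knockdowns without DNMT3b siRNA 1 (edgeR adjusted p = 0.0443). Both are named after their values were seen. Over the lists of regulators, partners, cadherins and neighbours, 10 genes were called after DNMT3b siRNA, 16 with DESeq2 and 3 (without DNMT3b siRNA 3) to 14 on leaving out a library; 18 after DNMT3a siRNA, 11 without all libraries numbered 2 and 8 (without DNMT3a siRNA 1) to 18 on leaving out one; and 13 between the knockdowns, 6 (without DNMT3a siRNA 1 or DNMT3b siRNA 3) to 15 on leaving out one.

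With the library number as a replicate block, 3 members were called after DNMT3b siRNA (Pcdhb17, Pcdhb16 and Pcdhgc3, all lower), 2 after DNMT3a siRNA and 2 between the knockdowns, and list calls numbered 16 after DNMT3b siRNA and 21 between the knockdowns. Same-numbered deviations correlated at 0.212, 0.101 and 0.0334 between DNMT3b and negative siRNA and at 0.161, 0.0776 and 0.0414 between the knockdowns, so these numbers are not read as pairs.

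Without its most abundant member, gamma C gave log2 ratios of -1.0 (DNMT3a over negative siRNA), 0.056 (DNMT3b over negative siRNA, opposite to -0.29 with Pcdhgc3) and -1.06 (between the knockdowns), and gamma B 0.23 between the knockdowns.

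Log2 fold changes of some uncalled named genes changed sign when single libraries were left out. After DNMT3a siRNA these ran from -0.27 to 0.72 for Pcdhac2, -0.13 to 0.11 for Pcdhb17, -0.0034 to 0.38 for Pcdhgb2, -0.16 to 0.052 for Pcdhgb5 and -0.056 to 0.29 for Pcdhga11. After DNMT3b siRNA they ran from -0.20 to 0.022 for Pcdhb22, -0.31 to 0.073 for Pcdhgb2, -0.089 to 0.28 for Pcdhgb4, -0.22 to 0.13 for Pcdhga11 and -0.084 to 0.047 for Zmat2, and between the knockdowns from -0.23 to 0.0065 for Pcdhga7. Other settings that changed a sign gave Pcdhb17 0.034 (library size alone) and 0.0037 (replicate block) after DNMT3a siRNA, Zmat2 0.017 (library size alone) and 0.066 and Pcdhgb4 -0.049 (both without all libraries numbered 2) after DNMT3b siRNA, and Pcdhgc4 0.064 between the knockdowns (without all libraries numbered 2). The cause of the moves above was not tested.

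Members with few reads have wide errors: standard errors of the log2 fold change after DNMT3b siRNA ran from 0.11 to 0.69, and a change within them was not detectable at this depth. Reads in constant exons went uncounted.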
